A study of Mus musculus with 16 samples.

Results

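The mitochondrial ribosome of mouse fat is described here through the nuclear genes of its proteins. Its members were the rows of a table of normalized counts whose symbol begins with Mrpl or Mrps and a digit, with 2 pseudogenes left out, which gave 77 of 16091 genes: 48 of the large subunit (Mrpl) and 29 of the small subunit (Mrps). RNA came from inguinal white adipose tissue, the subcutaneous fat of the groin, of C57BL6/J mice, in 4 groups of 4 libraries. They were high-fat diet with an antibody against PDGFcc, high-fat diet untreated, control diet with the same antibody, and control diet untreated. The antibody, AF1447, went to mice aged 6 weeks by intraperitoneal injection, at 50 mg/kg in 100 µl every 2 days for 2 weeks. PDGFcc is a growth factor ligand of the receptor on adipocyte progenitors. The sources used here do not give the length of the diets, a control injection for untreated mice or their age, nor whether each library is a separate animal. The p-values therefore reflect how far these libraries spread, part of which may be technical.

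Mitochondria keep their own ribosome, which translates the few messages of the mitochondrial genome, all of them for subunits of the respiratory chain and ATP synthase. The ribosomal RNAs are mitochondrial, while every ribosomal protein is encoded in the nucleus, made in the cytosol and imported. The small subunit holds the message and decodes it, and the large subunit joins amino acids and is anchored at the inner membrane. Thermogenic fat cells are rich in mitochondria and white fat cells are poor in them, and the groin fat pad of mice holds both kinds in proportions that vary with housing and diet.

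All 77 members passed the filter on low values and none was listed at 0 in any library. Single values lay between 105.1 normalized counts (Mrps33) and 3615 (Mrpl12). Adipoq, the adipocyte hormone adiponectin, lay between 78010 and 97150 in the 16 libraries, and all 12 adipocyte markers looked up were measured, as the label of the tissue implies. Of 14 skeletal muscle markers 13 were in the table, with sums of 1210 to 10330 (high-fat with antibody), 7455 to 560600 (high-fat untreated), 33500 to 190000 (control diet with antibody) and 1377 to 35230 (control diet untreated), and Ckm, Myh4 and Pvalb at 0 in some library. All 12 markers of thermogenic adipocytes were measured, with sums of 4412 to 21500 (high-fat with antibody), 4487 to 21680 (high-fat untreated), 16740 to 65640 (control diet with antibody) and 7183 to 102000 (control diet untreated), and Elovl3 at 0 in some library. The macrophage and adipose progenitor lists, 12 genes each, had sums of 47020 to 85170 and 373900 to 545300 in untreated high-fat libraries, against 35420 to 71570 and 189100 to 471900 in untreated control-diet libraries.

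Per kilobase of exon the level of the members covered a 38.8-fold range, with a median of 354 normalized counts per kilobase over all libraries. Mrpl12, a stalk protein that helps recruit translation factors, led the large subunit at 1410 per kilobase, followed by Mrpl10, its partner at the stalk base (986), and Mrpl2 (985), a core protein near the peptidyl transferase centre. Mrpl23 was lowest at 36.3, below Mrpl19 at 71.3 and Mrpl47 at 96.0. A named pseudogene of Mrpl23 exists, and its bearing on this level was not tested. In the small subunit Mrps21 stood at 1370 per kilobase, Mrps6 at 887 and Mrps7 at 765, while Mrps10, Mrps35 and Mrps33 stood at 75.4, 88.3 and 96.0. The order depends on which exons are counted, since with the longest transcript as length Mrps21 led all members at 2080 per kilobase.

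The first comparison asked how the high-fat diet changed these genes in mice without antibody. Messages for the mitochondrial ribosome were lower: 32 of 77 members fell past the threshold, 45 did not pass and 0 rose, and 75 had a lower level in the fit (46.9% of all genes did). The median log2 change was -0.39, or -23.7% on the scale of log2(normalized count + 1), against a median of 0.02 over all 14189 genes tested. A share of 41.6% of the members fell past an adjusted p of 0.05 (limma with Benjamini-Hochberg adjustment over all genes), against 5.17% of all genes tested. An unadjusted p under 0.05 was found in 70 of 77 members and 30.3% of all genes. In 22 members all 4 untreated high-fat libraries lay below all 4 untreated control-diet libraries, which held for 5.19% of all genes. Both subunits moved alike, with 22 of 48 large-subunit members past the threshold (median -0.38) and 10 of 29 small-subunit members (median -0.40). Assigning Mrps18a and Mrps30 to the large subunit, where the structure places their proteins, gave 23 of 50 and 9 of 27. Mrps36, whose product is now assigned to another complex, was kept among the 27. In bulk tissue, fewer mitochondria-rich cells and less of these messages per cell cannot be told apart.

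Averaged over members, the libraries formed a graded order. The mean deviation from each gene's 16-library mean was -0.08, -0.29, -0.15 and -0.20 on the log2 scale in untreated high-fat libraries 1 to 4. It was -0.11, 0.15, 0.44 and 0.39 in untreated control-diet libraries 1 to 4, so library 1 of that group lay within the high-fat range and the other 3 lay above it. Within a library the subunits hardly parted, as the large-subunit mean minus the small-subunit mean stayed between -0.03 and 0.05 in all 16 libraries. The sum of the 77 genes was 58990 ± 3551 normalized counts in untreated high-fat mice and 79020 ± 13670 in untreated control-diet mice (SD, n = 4 each).

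**Figure D1:**
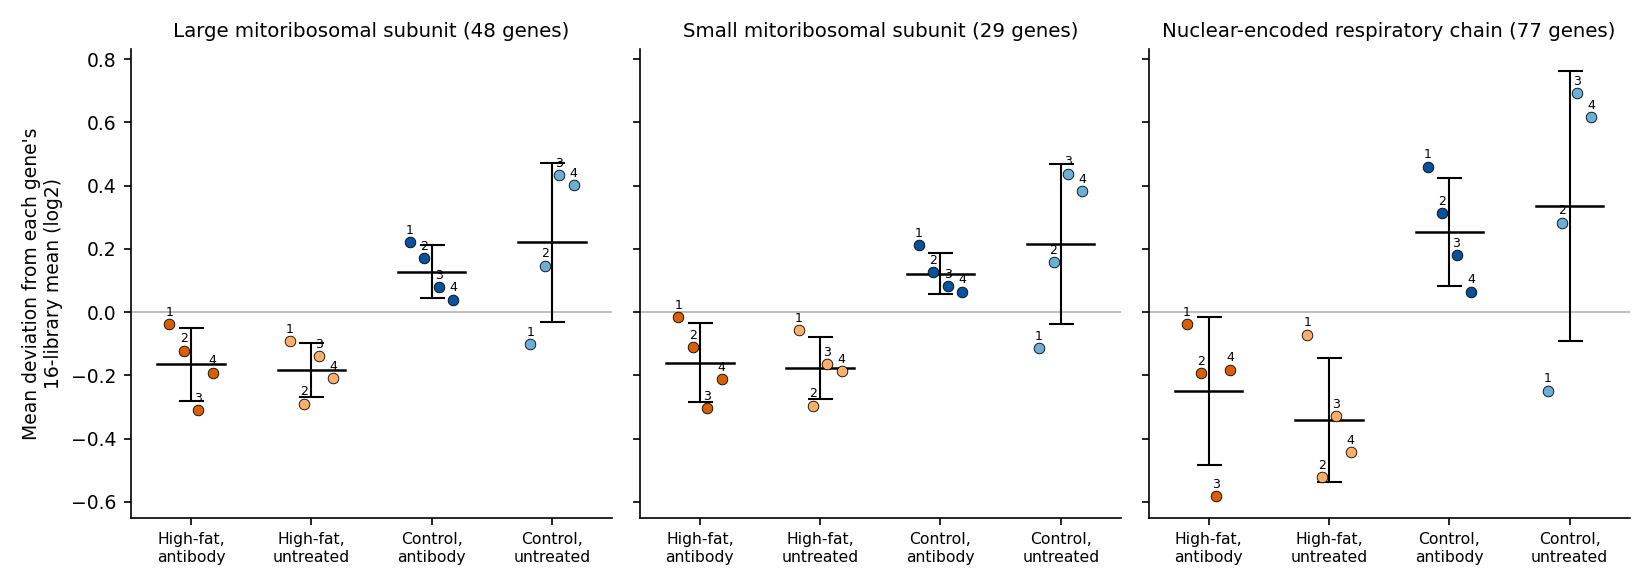
Mean deviation of the large subunit, the small subunit and the nuclear-encoded respiratory chain (log2, vertical axis) in each of 16 libraries, numbered by replicate, with group mean and SD. The 4 untreated high-fat libraries lay between -0.29 and -0.09 for the large subunit, and untreated control-diet library 1, at -0.10, lay among them.

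The count of calls rests on single libraries. Left out in turn, untreated control-diet library 1 raised it to 68, with 2151 of all 14189 genes lower past the threshold. It was 10 without control-diet library 2 (226 of all genes lower), 0 without library 3 (58) and 0 without library 4 (0). It was 40 without untreated high-fat library 1 (1110 of all genes lower), 1 without library 2 (77) or 3 (57) and 0 without library 4 (0). Without antibody-treated control-diet library 2 or 3 it was 18 (356 and 368 of all genes lower). Without antibody-treated high-fat library 2 it was 19 (367 of all genes lower) and without library 4 of that group 21 (395). The direction held more widely: with any 1 library left out, 75 or 76 members were lower and the median lay between -0.48 and -0.32. Fitted on the 8 untreated libraries alone, 0 members and 0 of all genes passed, with 60 members at an unadjusted p under 0.05 in limma. The thermogenic marker sum had nearly the same order of libraries, with untreated control-diet library 1 at 7183 against 24930 to 102000 in the other 3 of its group. The thermogenic marker score is built in part from genes of mitochondrial proteins, among them Ucp1, Cox7a1 and Cox8b. An adjustment for it therefore cannot tell cell makeup from the level per cell. With this score as a covariate, chosen after the data were seen, 0 members passed, and 12 of all genes fell. The members' median was then -0.20, and 28 of them had an unadjusted p under 0.05 in limma. The share of all genes with such a p was not counted in this fit or in that of the 8 untreated libraries. Adjusted for the muscle score, 1 member, Mrpl55, passed, 70 of all genes fell, and the members' median was -0.33.

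Among the large-subunit proteins Mrpl34, a small core protein with a bacterial counterpart, fell most (ENSMUSG00000034880, GRCm38 chromosome 8, 71464959 to 71465747). It had 492.9, 322.3, 403.6 and 336.6 normalized counts in untreated high-fat libraries, against 451.0, 681.4, 1037 and 1050 in untreated control-diet libraries. The 2 ranges touched, because high-fat library 1 lay above control-diet library 1. The log2 change was -0.99 ± 0.24 (SE; adjusted p = 0.034, limma). Mrpl12 (ENSMUSG00000039640, chromosome 11, 120484613 to 120489065), the stalk protein, had 1781, 1457, 1516 and 1420 in untreated high-fat libraries, against 1880, 2472, 3247 and 3615 in untreated control-diet libraries. Every high-fat value lay below every control-diet value, and the change was -0.82 ± 0.17 (adjusted p = 0.0242, limma).

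Mrpl55, a protein found in mitochondrial but not bacterial ribosomes (ENSMUSG00000036860, chromosome 11, 59202486 to 59206134), had the smallest adjusted p of all members. Its counts were 515.8, 453.3, 455.5 and 466.6 in untreated high-fat libraries, against 567.0, 685.9, 963.0 and 904.3 in untreated control-diet libraries. The groups did not overlap and the change was -0.69 ± 0.13 (adjusted p = 0.0167, limma). Mrpl30 (ENSMUSG00000026087, chromosome 1, 37890477 to 37898535) had 1659, 1300, 1588 and 1384 in untreated high-fat libraries, against 1589, 2193, 2837 and 2884 in untreated control-diet libraries, and changed by -0.65 ± 0.16 (adjusted p = 0.0344, limma). Here control-diet library 1 lay within the high-fat range. Mrpl18, of the central protuberance (ENSMUSG00000057388, chromosome 17, 12911349 to 12916345, minus strand), had 947.7, 826.9, 781.7 and 782.6 in untreated high-fat libraries, against 966.1, 1228, 1441 and 1475 in untreated control-diet libraries. Its groups did not overlap, and it changed by -0.60 ± 0.12 (adjusted p = 0.0242, limma). An exon of Mrpl18 lies over an exon of Tcp1 on the other strand, and whether reads were counted by strand is not given in the sources used here.

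**Figure D2:**
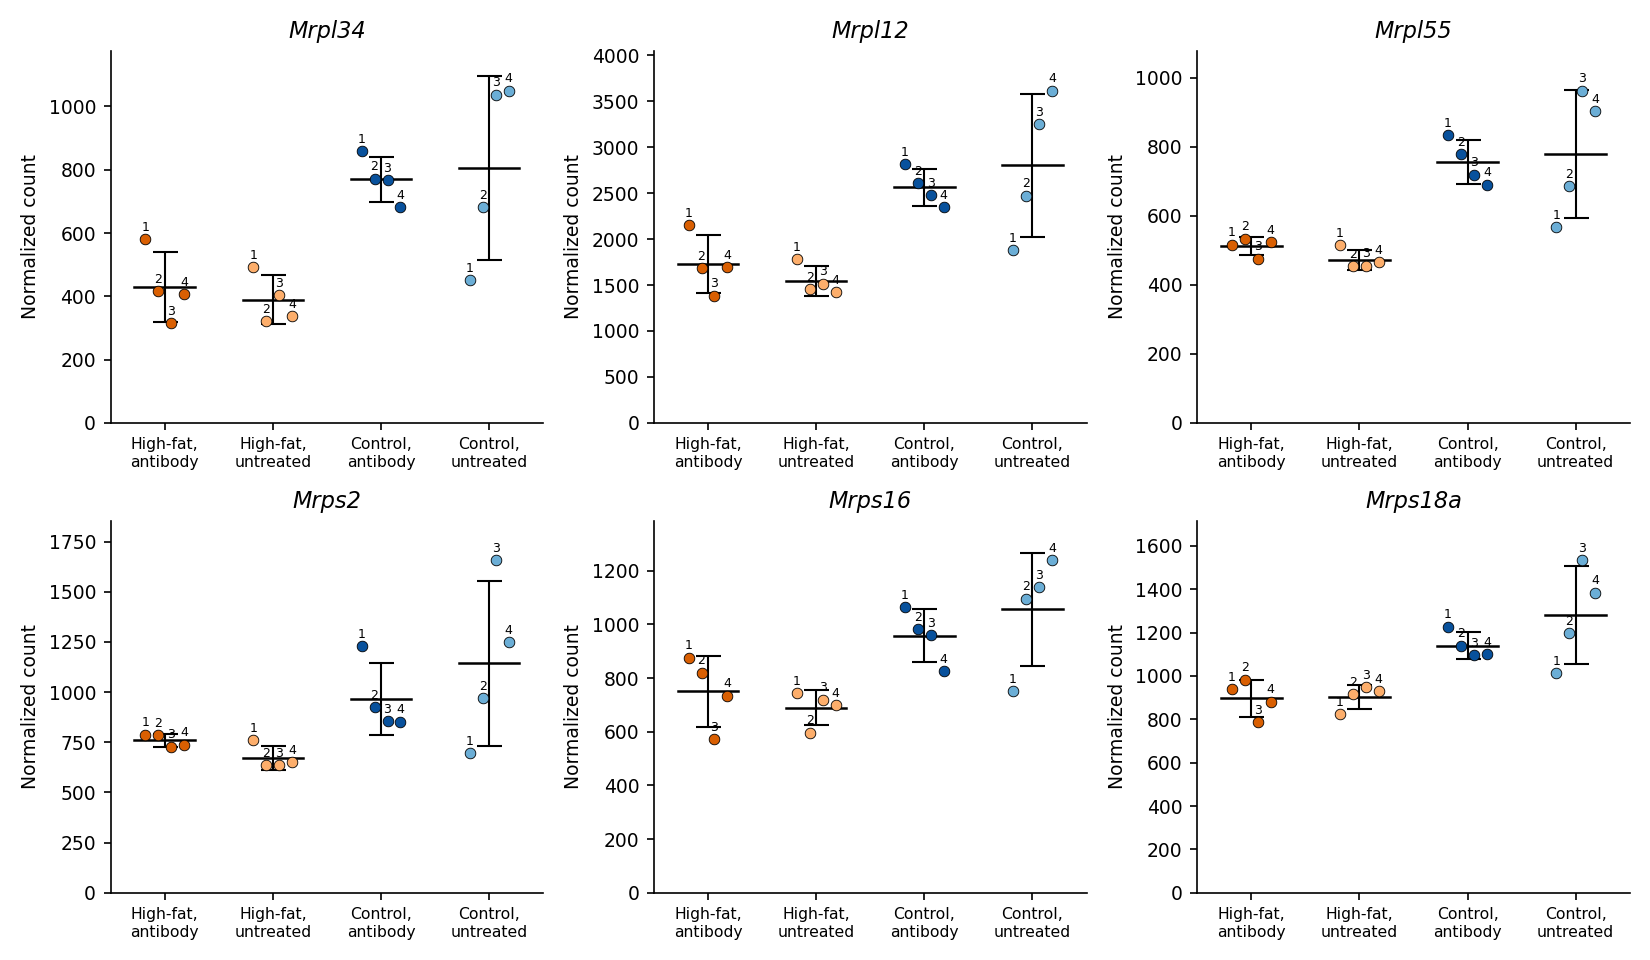
Normalized counts (vertical axes, from 0) of 3 large-subunit and 3 small-subunit genes among those that fell most, in each of 16 libraries, numbered by replicate, with group mean and SD. In all 6 panels the untreated control-diet library 1 is the lowest of its group, and for Mrpl12, Mrpl55, Mrps16 and Mrps18a it still lies above all 4 untreated high-fat libraries.

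Mrpl44, which carries a ribonuclease III fold, changed by -0.39 ± 0.10 (adjusted p = 0.041), and Mrpl58, a peptidyl-tRNA hydrolase that rescues stalled ribosomes, by -0.35 ± 0.09 (adjusted p = 0.0372, limma for both). Mrpl58 had 579.0, 500.7, 556.4 and 530.6 in untreated high-fat libraries, against 595.6, 635.4, 726.0 and 811.3 in untreated control-diet libraries, with no overlap. Mrpl3, a core protein whose exon is shared with a predicted gene on the same strand, had a change of -0.35 ± 0.11 that did not pass (adjusted p = 0.0593). Mrpl47 had one of the widest changes, -0.76 ± 0.23, and did not pass (adjusted p = 0.057). Mrpl54 was the 1 large-subunit member that was higher, by 0.03 ± 0.09 (adjusted p = 0.856), with 772.7, 672.3, 824.8 and 687.6 in untreated high-fat libraries, against 686.9, 650.8, 746.8 and 815.2 in untreated control-diet libraries.

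In the small subunit Mrps2 fell most among members past the threshold (ENSMUSG00000035772, chromosome 2, 28468066 to 28471178). It had 759.2, 635.4, 636.7 and 651.4 normalized counts in untreated high-fat libraries, against 697.1, 969.4, 1656 and 1249 in untreated control-diet libraries. High-fat library 1 stood apart from its group and above control-diet library 1, and the change was -0.70 ± 0.20 (adjusted p = 0.0438, limma). Mrps35, a protein particular to mitochondrial ribosomes (ENSMUSG00000040112, chromosome 6, 147042764 to 147073991), changed by -0.62 ± 0.14 (adjusted p = 0.0291). Mrps16 (ENSMUSG00000049960, chromosome 14, 20389304 to 20393634), whose loss in people causes a combined respiratory chain deficiency, had 742.7, 596.4, 720.0 and 699.9 in untreated high-fat libraries, against 751.3, 1096, 1139 and 1238 in untreated control-diet libraries. The gap between its groups was narrow, and the change was -0.59 ± 0.15 (adjusted p = 0.0377, limma). Mrps15 (ENSMUSG00000028861, chromosome 4, 126046925 to 126055532) changed by -0.49 ± 0.12 (adjusted p = 0.0342) and its groups did not overlap.

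The 3 Mrps18 paralogs parted in their calls. Mrps18a (ENSMUSG00000023967, chromosome 17, 46110986 to 46128910), which sits in the large subunit, had 823.5, 915.2, 949.2 and 928.1 in untreated high-fat libraries, against 1011, 1196, 1532 and 1384 in untreated control-diet libraries. It fell by 0.49 ± 0.11 on the log2 scale (adjusted p = 0.0281, limma), with no overlap. Mrps18b and Mrps18c, both of the small subunit, had changes of -0.48 ± 0.16 and -0.25 ± 0.11 that did not pass (adjusted p = 0.065 and 0.13, limma). The differences between paralogs were not tested, and each of these last genes shares an exon with a predicted gene, Mrps18b with Gm16279 on the other strand and Mrps18c with Gm43511 on the same strand.

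Of the other small-subunit genes followed in every comparison, Mrps5 fell by 0.39 ± 0.11 (adjusted p = 0.0468, limma). Mrps22 and Mrps34, both mitochondria-specific proteins with known human disease alleles, had changes of -0.44 ± 0.13 (adjusted p = 0.0522) and -0.43 ± 0.16 (adjusted p = 0.0947), which did not pass. Mrps12, near the decoding centre, had -0.30 ± 0.17 (adjusted p = 0.247), and Mrps30 -0.23 ± 0.10 (adjusted p = 0.149). Mrps36, whose product is now assigned to the 2-oxoglutarate dehydrogenase complex and not to the ribosome, had the widest change of all Mrps genes, -0.73 ± 0.22 (adjusted p = 0.0524, limma). It had 313.7, 197.2, 203.7 and 201.4 in untreated high-fat libraries, against 245.9, 327.5, 559.5 and 432.4 in untreated control-diet libraries. High-fat library 1 was again the high one. Mrps6 was the 1 small-subunit member that was higher, at 1607, 1435, 1350 and 1606 in untreated high-fat libraries, against 1582, 1186, 1243 and 1345 in untreated control-diet libraries (0.17 ± 0.12, adjusted p = 0.338, limma). Its exons are shared with Slc5a3, a transporter gene on the same strand.

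**Figure D3:**
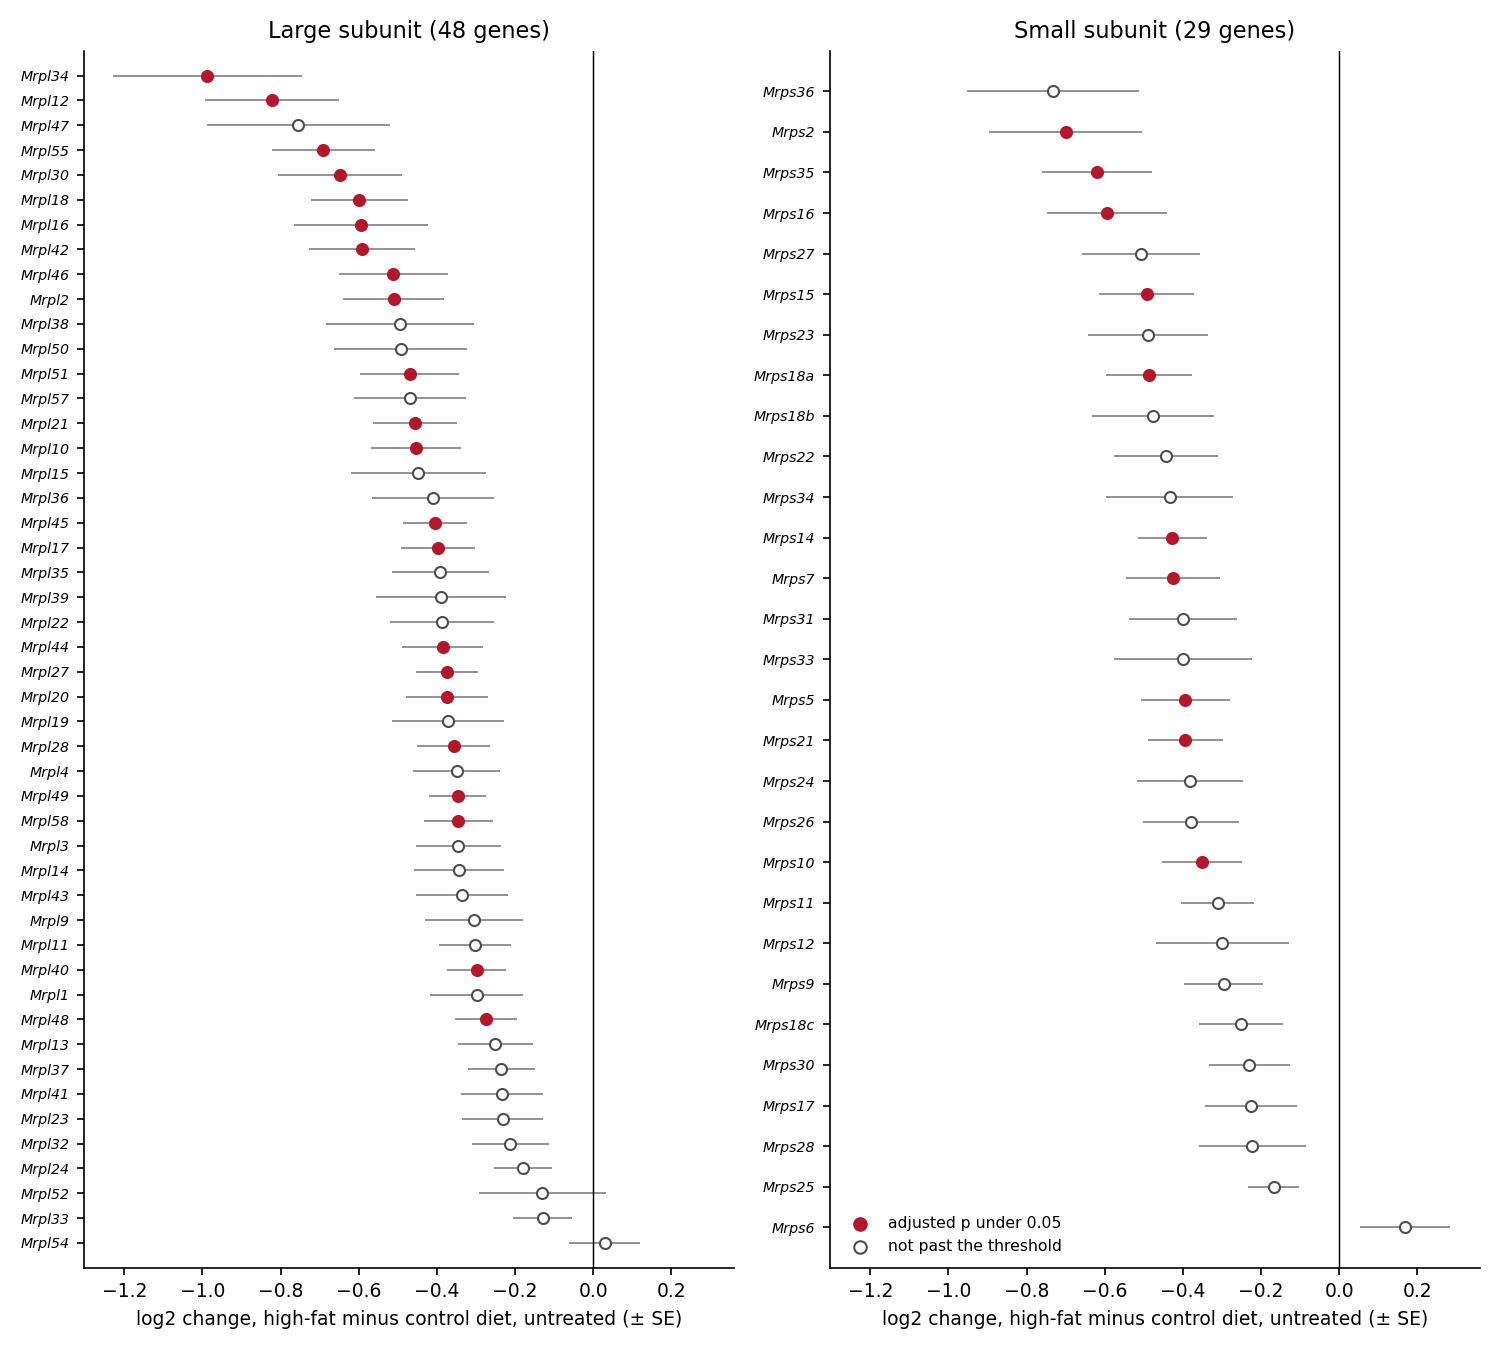
Log2 change in untreated mice, high-fat minus control diet, of the 48 large-subunit and 29 small-subunit members, with SE; filled points passed an adjusted p of 0.05. Changes run between -0.99 (Mrpl34) and 0.17 (Mrps6), and 75 of 77 points lie left of 0.

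Members on either side of the threshold were close in value. Mrps10 (-0.35, adjusted p = 0.0489) and Mrpl48 (-0.27, adjusted p = 0.0475) were just inside, and Mrps27 (-0.51, adjusted p = 0.0507) and Mrps11 (-0.31, adjusted p = 0.0525) just outside. Changes of the 32 members that passed lay between -0.99 and -0.27, and those of the 43 lower members that did not lay between -0.76 and -0.13. Members with a bacterial counterpart and members of the mitochondrial ribosome alone, a split added after values had been seen, had 21 of 46 past the threshold (median -0.38) and 11 of 31 (median -0.40). This split covers all members, so it still counts Mrps36. Within groups the members had a median SD of 0.18 on the log2 scale, against 0.20 over all genes tested, with the smallest spread in Mrps25 (0.08) and the largest in Mrpl34 (0.37).

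The promoters of 5 of the members that fell are shown because they hold the binding motifs most often discussed for nuclear genes of mitochondria. Each runs from 250 bases before to 50 bases after the RefSeq start site (build GRCm38.p6), 5′ to 3′ on the gene's strand, with motif matches in capitals. Searched on both strands were TGCGCA (the core of the nuclear respiratory factor 1 site, the same on both strands), CCGGAAG (the GA-binding protein and other ETS factors), AAGATGG (YY1) and AAGGTCA (estrogen-related receptors). In all 68 windows searched, 0 matches of one motif overlapped a match of another.
Mrpl34, chr8:71464676-71464975, plus strand: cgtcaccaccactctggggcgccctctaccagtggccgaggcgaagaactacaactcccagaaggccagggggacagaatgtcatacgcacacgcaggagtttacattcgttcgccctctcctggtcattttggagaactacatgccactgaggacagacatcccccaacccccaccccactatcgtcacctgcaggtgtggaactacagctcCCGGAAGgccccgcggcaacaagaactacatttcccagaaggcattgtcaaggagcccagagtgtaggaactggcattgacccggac
Mrpl12, chr11:120484387-120484686, plus strand: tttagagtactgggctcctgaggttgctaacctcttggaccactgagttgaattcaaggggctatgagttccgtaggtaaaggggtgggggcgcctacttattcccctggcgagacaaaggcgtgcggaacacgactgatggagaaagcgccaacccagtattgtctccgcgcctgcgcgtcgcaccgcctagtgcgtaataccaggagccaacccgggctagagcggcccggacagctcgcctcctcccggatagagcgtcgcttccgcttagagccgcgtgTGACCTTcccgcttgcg
Mrpl45, chr11:97315466-97315765, plus strand: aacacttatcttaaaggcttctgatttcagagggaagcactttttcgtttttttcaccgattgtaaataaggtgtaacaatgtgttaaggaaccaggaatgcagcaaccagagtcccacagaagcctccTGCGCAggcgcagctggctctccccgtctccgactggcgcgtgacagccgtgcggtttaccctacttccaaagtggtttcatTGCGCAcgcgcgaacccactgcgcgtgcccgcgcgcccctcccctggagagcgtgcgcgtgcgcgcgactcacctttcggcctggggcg
Mrps18a, chr17:46110754-46111053, plus strand: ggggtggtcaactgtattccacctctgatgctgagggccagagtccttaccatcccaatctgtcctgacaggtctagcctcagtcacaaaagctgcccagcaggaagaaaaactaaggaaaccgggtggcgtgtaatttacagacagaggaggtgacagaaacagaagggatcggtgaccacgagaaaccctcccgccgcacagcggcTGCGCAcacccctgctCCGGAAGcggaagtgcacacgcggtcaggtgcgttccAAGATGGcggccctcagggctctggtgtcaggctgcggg
Mrps21, chr3:95871465-95871764, minus strand: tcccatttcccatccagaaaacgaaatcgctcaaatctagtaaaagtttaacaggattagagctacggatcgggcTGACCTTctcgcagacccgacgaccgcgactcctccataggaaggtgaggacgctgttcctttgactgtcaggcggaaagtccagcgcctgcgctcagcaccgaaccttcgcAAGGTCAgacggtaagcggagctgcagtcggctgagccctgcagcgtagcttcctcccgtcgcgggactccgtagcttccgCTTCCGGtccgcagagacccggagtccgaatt

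Mrpl34 held 1 ETS match, and Mrpl12 held 1 match of the estrogen-related receptors, at base 34 counted from the RefSeq start site. Mrpl45, a protein near the exit tunnel that ties the ribosome to the inner membrane, held 2 matches of nuclear respiratory factor 1. Mrps18a held 1 match each of nuclear respiratory factor 1, the ETS factors and YY1, and Mrps21 held 1 ETS match and 2 of the estrogen-related receptors. RefSeq promoters were matched for 68 of 77 members, and 64.7% of these held at least 1 motif, against 35.5% of 10736 tested genes with a promoter. For a gene with several RefSeq start sites (3 of the 68 members), the window of the start nearest the GENCODE gene start was searched. The ETS motif was held by 23 of 68 members (33.8%, against 17.6% of genes), the nuclear respiratory factor 1 motif by 21 (30.9%, against 14% of genes), the YY1 motif by 13 (19.1%, against 7.01%) and the receptor motif by 4 (5.88%, against 3.17%). Among 31 members that fell and 37 that did not pass, 29% and 37.8% held the ETS motif, 25.8% and 35.1% that of nuclear respiratory factor 1, and 12.9% and 24.3% that of YY1. The receptor motif was held by 9.68% of those that fell and 2.7% of the others. These matches describe letters in a window and were not tested as binding sites.

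The genes lie on 17 chromosomes, and 26 of 77 (33.8%) start within 500 bases of a gene on the other strand, against 14.5% of 13925 protein-coding genes in the table. Mrpl46 and Mrps11, a gene of each subunit, overlap at their 5′ ends on chromosome 7 (78775236 to 78783531 and 78783119 to 78792989). Mrpl46 fell by 0.51 ± 0.14 (adjusted p = 0.0425), and Mrps11 had -0.31 ± 0.09 without passing (adjusted p = 0.0525, limma). Mrpl36 starts opposite Ndufs6, a complex I subunit that fell by 0.69 ± 0.16 (adjusted p = 0.0301), while Mrpl36 had -0.41 ± 0.16 (adjusted p = 0.0981). Mrps12 starts opposite Sars2, the mitochondrial seryl-tRNA synthetase, which fell by 0.52 ± 0.12 (adjusted p = 0.0281). Of the 22 tested partners that are not members, 3 fell and 0 rose, 18 were lower and their median was -0.15. Over all genes 5.17% fell and 46.9% were lower. Psma2, a proteasome subunit opposite Mrpl32, was the third partner that fell (-0.32, adjusted p = 0.0382, limma). Of the 26 members with a partner 13 fell, and of the 51 without 19 did, a difference that was not tested. In all, 24 members share exon sequence with another gene of the table. The 53 that do not had 24 past the threshold and a median of -0.39, and the 24 that do had 8 and a median of -0.37.

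The nuclear-encoded respiratory chain, whose complexes other than complex II also hold subunits made by this ribosome, moved the same way, with a lower median. Of 77 measured genes 53 fell (68.8%), 0 rose and 24 did not pass, with a median of -0.70, or -38.4%. By complex, 27 of 36 genes of complex I fell (median -0.69), 3 of 4 of complex II (-0.80), 7 of 9 of complex III (-0.84), 7 of 11 of complex IV (-0.71) and 9 of 17 of complex V, the ATP synthase (-0.58). Tissue-specific isoforms of complex IV were kept outside these 77 genes. Of 5 such isoforms tested, 0 fell past the threshold and 0 rose. In the fit 3 were lower and 2 higher, with a median of -0.17 and changes between -1.80 and 1.55. In 6 of 77 respiratory chain genes all high-fat values lay below all control-diet values, a share near the 5.19% of all genes. Cyc1, cytochrome c1 of complex III, had 6283, 4045, 4583 and 4211 normalized counts in untreated high-fat libraries, against 5172, 8147, 12520 and 11330 in untreated control-diet libraries. High-fat library 1 lay above control-diet library 1, and the change was -0.90 ± 0.24 (adjusted p = 0.0413, limma).

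Other subunits with small p were Ndufs5 (-0.73, adjusted p = 0.0242) and Ndufb7 (-0.58, adjusted p = 0.0279) of complex I, Sdhc (-0.62, adjusted p = 0.0342) and Sdhd (-0.88, adjusted p = 0.0393) of complex II, and Uqcrh of complex III (-0.75, adjusted p = 0.0371). Cox7c (-0.68, adjusted p = 0.0342) and Cox7a2 (-0.71, adjusted p = 0.0362) of complex IV and Atp5k (-0.70, adjusted p = 0.0304) and Atp5mpl (-0.71, adjusted p = 0.0323) of complex V fell as well (limma). Both lists had the same sign of mean deviation in all 16 libraries, and the respiratory chain had the larger deviation in 14. In untreated high-fat libraries 1 to 4 the respiratory chain mean was -0.07, -0.52, -0.33 and -0.44, and in untreated control-diet libraries 1 to 4 it was -0.25, 0.28, 0.69 and 0.62. The difference between the 2 lists was not tested.

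The rest of the mitochondrial translation apparatus had negative medians too, beside the 5.17% of all genes that fell. All 14 measured translation factors were lower and 4 fell (28.6%, median -0.41), among them Slirp, which binds mitochondrial messages (-0.43, adjusted p = 0.0362), and Tsfm, an elongation factor (-0.41, adjusted p = 0.0392). Of 5 mitoribosomal proteins with other names 2 fell, Aurkaip1 (-0.35, adjusted p = 0.041) and Chchd1 (-0.36, adjusted p = 0.0486). Of 17 mitochondrial tRNA synthetases 3 fell (17.6%, median -0.32), Sars2 and Cars2 (-0.36, adjusted p = 0.0438) with the smallest p, and of 23 assembly factors 2 fell (8.7%, near the share of all genes, median -0.22), the methyltransferase Mrm2 (-0.46, adjusted p = 0.0304) and the small-subunit GTPase Eral1 (-0.51, adjusted p = 0.0342, limma). None of 12 biogenesis regulators passed (median -0.04, 7 at an unadjusted p under 0.05, limma), with Esrra, the estrogen-related receptor alpha, at -0.83 ± 0.25 (adjusted p = 0.0507) and Tfam, the mitochondrial transcription factor, at -0.34 ± 0.11 (adjusted p = 0.0599). Of 80 cytosolic ribosomal proteins, a list taken by symbol after the data were seen, 0 passed, 2 had an unadjusted p under 0.05 in limma, and the median was 0.01.

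**Figure D4:**
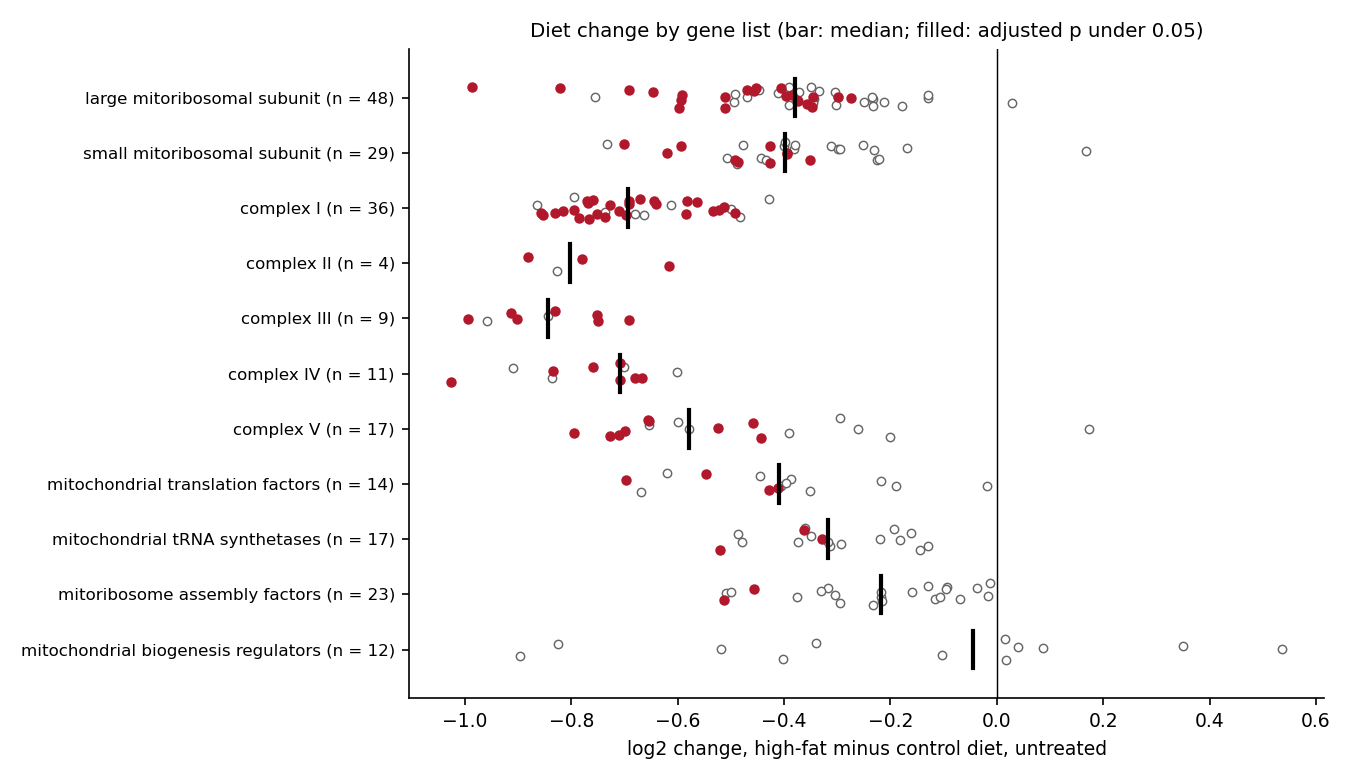
Log2 change of each gene (points, horizontal axis) in untreated mice, high-fat minus control diet, by list, with the list median as a bar; filled points passed an adjusted p of 0.05. Medians of the 2 ribosomal subunits lie at -0.38 and -0.40, between those of the respiratory complexes (-0.84 to -0.58) and that of the biogenesis regulators (-0.04).

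In mice given the antibody, the same diets were compared with no library in common with the first comparison. Again 75 of 77 members were lower on the high-fat diet (46.1% of all genes were), with a median of -0.28, or -17.6%, but 0 passed the threshold, and 46 had an unadjusted p under 0.05 (limma). Over all genes 0.00705% were called and 18.1% had an unadjusted p under 0.05. In 38 members all 4 antibody-treated high-fat libraries lay below all 4 antibody-treated control-diet libraries, 26 of the large and 12 of the small subunit, against 9.08% of all genes. The mean deviation was -0.03, -0.12, -0.31 and -0.20 in antibody-treated high-fat libraries 1 to 4, and 0.22, 0.15, 0.08 and 0.05 in antibody-treated control-diet libraries 1 to 4, so the groups did not overlap. The sums were 59900 ± 4522 and 73040 ± 4203 normalized counts (SD, n = 4 each).

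Mrpl55 had the smallest adjusted p here too, with 516.8, 533.6, 475.9 and 524.3 in antibody-treated high-fat libraries, against 833.9, 779.7, 719.7 and 690.5 in antibody-treated control-diet libraries (-0.56 ± 0.13, adjusted p = 0.0883, limma). These groups lay well apart. Mrpl57 had -0.57 ± 0.14 (adjusted p = 0.0905), Mrpl34 -0.87 ± 0.24 (adjusted p = 0.105) and Mrpl12 -0.58 ± 0.17 (adjusted p = 0.122). Mrps14 had -0.31 ± 0.09 (adjusted p = 0.11) and Mrps18a -0.35 ± 0.11 (adjusted p = 0.137). Mrps6 was higher again, by 0.12 ± 0.12 (adjusted p = 0.617), and Mrpl23 by 0.01 ± 0.10 (adjusted p = 0.984, limma). Of the respiratory chain all 77 genes were lower (median -0.52), 0 passed, 68 had an unadjusted p under 0.05 in limma, and 59 did not overlap between groups. Muscle marker sums were 1210 to 10330 in the high-fat group and 33500 to 190000 in the control-diet group of this comparison; adjusted for the muscle score the members had a median of -0.48. Of 12 thermogenic markers 11 were lower in this comparison (median -1.28). Adjusted for their score the members had a median of -0.14, with 19 at an unadjusted p under 0.05 (limma). The share of all genes with such a p was not counted in that fit. With that score Mrpl34 was the 1 member that fell, beside 119 of all genes. Fitted on these 8 libraries alone, 9 members fell, and 515 of all genes did. Without untreated control-diet library 1, which enters through the shared spread, 5 members fell, and 182 of all genes did.

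Across the 77 members the 2 diet changes had a Pearson r of 0.74 and a Spearman rho of 0.65, given as a description because genes are not independent and the members share their libraries. In both, 74 members were lower (32.7% of all genes were), 65 had the larger fall in untreated mice, and in 13 the groups did not overlap in either, as in 1.64% of all genes: Mrpl12, Mrpl18, Mrpl20, Mrpl28, Mrpl42, Mrpl48, Mrpl55, Mrpl57, Mrpl58, Mrps14, Mrps15, Mrps18a and Mrps21.

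**Figure D5:**
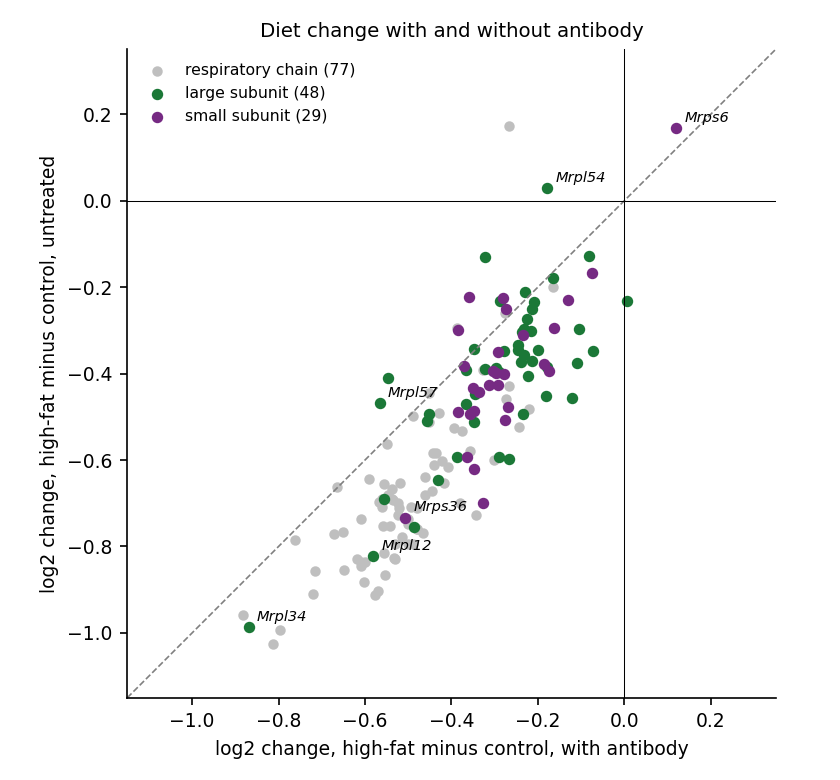
Log2 change of each gene, high-fat minus control diet, with antibody (horizontal) and untreated (vertical), for both ribosomal subunits and the respiratory chain; the dashed line marks equal change. Of 77 members 74 lie below 0 on both axes, and 65 had the larger fall in untreated mice.

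The antibody comparisons asked whether blocking PDGFcc changed these genes on either diet. On the high-fat diet no member passed, 1 had an unadjusted p under 0.05 (limma), and the median was 0.02, with 42 members higher (50.1% of all genes) and 35 lower; 0.0775% of all genes were called and 13.5% had an unadjusted p under 0.05. That 1 member was Mrpl18, with 1118, 1094, 870.8 and 1068 in antibody-treated high-fat libraries, against 947.7, 826.9, 781.7 and 782.6 in untreated high-fat libraries (0.31 ± 0.12, adjusted p = 0.277, limma). Its groups overlapped through antibody library 3. Mrpl40 had 0.14 ± 0.08 (adjusted p = 0.451), Mrps26 0.18 ± 0.12 (adjusted p = 0.558) and Mrps6 -0.15 ± 0.12 (adjusted p = 0.621). Adjusted for the muscle score, Mrps26 turned to -0.05 and the members' median to -0.12, with 70 of 77 lower. Adjusted for the thermogenic score the median was -0.07. Respiratory chain genes had a median of 0.09, with 70 of 77 higher and 0 called, 1 at an unadjusted p under 0.05 in limma.

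On the control diet 66 of 77 members were lower with the antibody (52% of all genes), with a median of -0.09, 0 past the threshold and 6 at an unadjusted p under 0.05 (limma); 0.0987% of all genes were called and 11.6% had an unadjusted p under 0.05. Mrpl45 had 997.0, 974.9, 863.9 and 881.7 in antibody-treated control-diet libraries, against 1000, 1060, 1266 and 1115 in untreated control-diet libraries, the 1 member that lay wholly lower, as 3.33% of all genes did (-0.25 ± 0.08, adjusted p = 0.239, limma). Mrpl27, which lies near the peptidyl transferase centre, had -0.21 ± 0.08 (adjusted p = 0.308), Mrps14 -0.21 ± 0.09 (adjusted p = 0.374) and Mrps25 -0.15 ± 0.07 (adjusted p = 0.411). Adjusted for the muscle score the median was 0.01 with 37 members lower, and without untreated control-diet library 3 it was -0.02 with 42 lower. Without untreated control-diet library 1 it went the other way, to -0.20 with 76 lower and 0 past the threshold. In that fit 24 members had an unadjusted p under 0.05 (limma), and the share of all genes was not counted. The 13 members followed in every comparison lay between -0.24 and 0.10 on the control diet and between -0.14 and 0.19 on the high-fat diet. The 2 antibody comparisons share their untreated libraries with the diet comparison.

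Whether the antibody changed the effect of the diet was tested as an interaction. No member passed, 3 had an unadjusted p under 0.05 (limma), and the median was 0.10, with 65 of 77 members above 0 (52.7% of all genes); over all genes 0% passed and 6.18% had an unadjusted p under 0.05. Mrpl49 had 0.28 ± 0.11 (adjusted p = 0.66), Mrpl27 0.26 ± 0.11 (adjusted p = 0.737), Mrps35 0.27 ± 0.20 and Mrps5 0.22 ± 0.16, a positive value meaning a smaller fall with the antibody. Adjusted for the muscle score the median was -0.15, so its sign rests on that choice. The respiratory chain had a median of 0.19, with 72 of 77 genes above 0 and 0 called or at an unadjusted p under 0.05 (limma).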

How the data were processed

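Poly-A RNA of 16 adipose samples was sequenced from stranded libraries, per the labels' protocols. The authors deposited a linear signal per gene and library, called normalized counts in the table's name; values were not whole numbers, and how they were normalized, filtered and counted by strand is not stated there, so the read depth is unknown and no count model was run. Totals per column were 24.02 to 28.15, in units of 1e6. The submitters' processing notes name STAR 2.7.0e, limma 3.42.2, fastp 0.20.1, Subread 1.6.2 with featureCounts, and the builds GRCm38 and mm10, without their roles.

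Genes with at least 24.49 (the median column total divided by 1e6, standing for 1 CPM) in 4 or more libraries were tested, which kept 14189 and left out 1902. In R 4.3.3, limma 3.58.1 fitted 1 mean per group to log2(value + 1) over the 16 libraries together, with a variance trend (residual degrees of freedom 12, prior 3.07). Tests were two-sided, with Benjamini-Hochberg adjustment over all genes within each of 5 contrasts, with a threshold of 0.05. This scale understates the change of low genes. The fit was run on simulated data in which genes varied independently, so that run does not cover genes that move together by library. Coordinates and exon lengths come from GENCODE vM21 (GRCm38), where all 77 members had the same symbol, and promoters from RefSeq. Of the members, 20 share exon sequence with a gene of the table on the opposite strand and 4 on the same strand. Named pseudogenes exist for 3 members, Mrpl23, Mrpl48 and Mrps36.

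The members, lists, named genes and tests were chosen with earlier results of these data known. The text names, per contrast and subunit, the 5 largest changes past the threshold or else the 2 smallest p-values. It also names 13 members in every contrast, the 3 highest and 3 lowest per kilobase, the 2 smallest p-values of each other list, and members with a value far from its group. Mrpl45 and Mrps21 promoters and the genes opposite members were chosen after values were seen. Mitochondrially encoded genes and epithelial markers were not analysed here. Alternatives covered the pseudocount, filter, scaling, variance model, library weights, replicate block, marker scores as covariates and each library left out.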

Additional observations from a re-analysis of the deposited data

Results flagged for a closer look

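In 8 of 320 groups of 4 values tested, 1 library stood apart from the others of its group, by a gap over the whole range above Dixon's critical value of 0.829. Chance gives about 1 in 20. Antibody-treated high-fat library 3 was the low one for 3 genes: Mrpl3 (870.8 normalized counts, the others 966.3 to 969.3, ratio 0.971), Mrpl46 (322.7, the others 390.4 to 403.9, ratio 0.848) and Mrpl47 (247.5, the others 371.3 to 391.0, ratio 0.887). This library also had the lowest mean of all members, at -0.31 on the log2 scale.

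Untreated high-fat library 1 was the high one for Mrps2 (759.2, the others 635.4 to 651.4, ratio 0.86) and for Mrps36 (313.7, the others 197.2 to 203.7, ratio 0.93). It had the highest mean of its group, at -0.08. Untreated high-fat library 2, which also had the highest muscle marker sum (560600), was low for Mrps21 (773.8, the others 907.4 to 931.6, ratio 0.859). Antibody-treated control-diet library 1 was high for Mrps14 (1091, the others 944.1 to 960.2, ratio 0.883). Untreated control-diet library 3, with the highest mean of all libraries at 0.44, was low for Mrpl33 (700.0, the others 808.3 to 811.6, ratio 0.972). The part of depth, cell makeup or handling in these gaps was not tested.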

How the results depend on the processing

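In untreated mice the count of members that passed between the diets was 32. It became 0 with the 2 groups compared fitted alone, 0 with the replicate block and 0 without untreated high-fat library 2 and untreated control-diet library 3. In each of these fits 0 of all genes passed. With library weights it was 60 (59 fell, and Mrps6 rose), beside 2138 of all genes lower and 2242 higher. With the muscle score as a covariate it was 1, beside 70 of all genes lower and 32 higher. With alternatives chosen after seeing the data it was 67 without both untreated libraries numbered 1, beside 2319 of all genes lower and 2225 higher. It was 0 with the thermogenic score, beside 12 of all genes lower and 1 higher, and there the members' median was -0.20. Leaving out 1 library gave 0 to 68 calls and medians of -0.48 to -0.32. Over 29 alternatives the median lay between -0.52 and -0.20 and 73 to 76 members were lower.

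Equal column totals moved the median of all genes to 0.12, from 0.02, in the untreated diet comparison: 941 genes were higher and 493 lower past the threshold, against 423 and 734 as deposited, and 25 members fell with a median of -0.29.

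With the antibody, the diet count of 0 became 9 with the groups alone, 21 with library weights, 1 without the 2 libraries named first, 8 without both untreated libraries numbered 1 and 1 with the thermogenic score; the median was -0.48 with the muscle score and -0.14 with the thermogenic score, and leaving out 1 library gave 0 to 5 calls and medians of -0.32 to -0.24. The antibody count of 0 became 1 with library weights on each diet (Mrpl18 on the high-fat, Mrpl27 on the control diet) and 1 (Mrpl18) on the high-fat diet without both untreated libraries numbered 1; with 1 library left out it stayed at 0, with medians of -0.03 to 0.05 on the high-fat and -0.20 to -0.02 on the control diet. With the muscle score the antibody medians were -0.12 on the high-fat and 0.01 on the control diet, and with the thermogenic score -0.07 and -0.10. The interaction median was -0.15 with the muscle score, 0.05 with the thermogenic score and 0.03 to 0.22 with 1 library left out. Without both untreated libraries numbered 1 it was 0.24 and 0 members passed. In that fit 57 of all genes were higher and 270 lower past the threshold for the interaction. Mrps26 turned to -0.0489 on the high-fat diet with the muscle score. The cause of these changes was not tested.

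Whether equal replicate numbers mark paired samples was not settled. Deviations of same-numbered libraries correlated between -0.54 and 0.49 in the 4 contrasts of 2 groups. Differently numbered libraries were not set beside them, so these values cannot decide it. The replicate block took the untreated diet count to 0, and 0 of all genes passed with it. In the untreated diet comparison each pair of a named member and an alternative fit was counted. With leave-one-out fits set aside, the side of the threshold was kept in 190 of 273 pairs, with 70 calls lost and 13 gained. With 1 library left out it was kept in 232 pairs, with 96 calls lost and 8 gained. Read depth before normalization is unknown and limits every value, though not necessarily to the same degree.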
